A study of Mus musculus with 4 samples.

Results

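HOXA5 occupancy in the embryonic lung was examined at 8 genes that carry some of the most enriched narrow peaks of the series, 2700097O09Rik, Il21r, E2f3, Plekha5, Gyg, Itpr1, Ablim1 and Ncoa2, out of 21779 protein-coding genes considered. The data are chromatin immunoprecipitation followed by sequencing (ChIP-seq) on whole lungs of E15.5 mouse embryos, in which both copies of the endogenous Hoxa5 gene encode a FLAG-tagged protein (genotype Hoxa5FLAG/FLAG). The libraries comprise 2 FLAG immunoprecipitates and 2 inputs from the same genotype and stage. Peak lists of the 2 immunoprecipitates were used. The inputs were not analysed here, and the labels name no untagged group, so no comparison with a control was made here. Whether the inputs served as background for the deposited fold enrichments is not known. Whether each replicate came from 1 animal, 1 litter or a pool is not in the labels.

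HOX proteins are homeodomain transcription factors that set regional identity along the body axis. They bind short AT-rich DNA sequences, often together with the TALE homeodomain proteins PBX and MEIS, which extend the recognised sequence. In the lung, HOXA5 is a factor of the mesenchyme, and mice without it have airway defects and often die at birth. A ChIP-seq peak marks a stretch of DNA recovered more often than its surroundings. Its summit is the base with the highest signal, and its fold enrichment is the height there over the background that the peak caller expected. Whole lung holds many cell types, so a peak does not tell in which cells the site was occupied, and peak lists hold no expression values with which the tissue could be checked.

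The genes were chosen by a measured value, the fold enrichment in replicate 1. A gene qualified when a narrow shared peak of over 20-fold lay inside it, or within 100 kb of it with no other protein-coding gene nearer. A shared peak is one whose replicate 1 and replicate 2 peaks overlapped by at least 1 bp, and it is narrow when no peak in it exceeded 1000 bp. Of 1643 narrow shared peaks, 45 (2.74%) passed 20-fold. They gave 33 genes with such a peak (0.152% of protein-coding genes), and the 8 described here were taken from these 33. Fold enrichment in replicate 1, the presence of a partner in replicate 2 and peak length are therefore descriptions of the choice, and no test was made on them. Both measures printed per peak, fold enrichment and −log10 q (the confidence that the peak exceeds background, higher meaning more), come from the authors and rank a peak within its own list. Each list gives 1 value, so there is no error to attach to it. The number of sequenced reads behind them is unknown.

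Each of the 8 genes had 1 lead peak that stood far above its list. Across the 8, fold enrichment ran from 21.8 to 54.4 in replicate 1 (median 36.1) and from 10.6 to 25.6 in replicate 2 (median 19.3). Over all narrow shared peaks the medians were 4.93 and 3.80. The replicate 1 list held 4289 peaks and the replicate 2 list 2832. Ranked by fold, the lead peaks stood between places 2 and 38 in replicate 1 and between places 1 and 57 in replicate 2. In replicate 1, Ncoa2 at place 32 and Ablim1 at place 38 stood well below the other 6. In replicate 2, Ncoa2 again stood low, at place 57, while Ablim1 took place 9. The other 6 genes stood among the first 11 in either list.

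**Figure D1:**
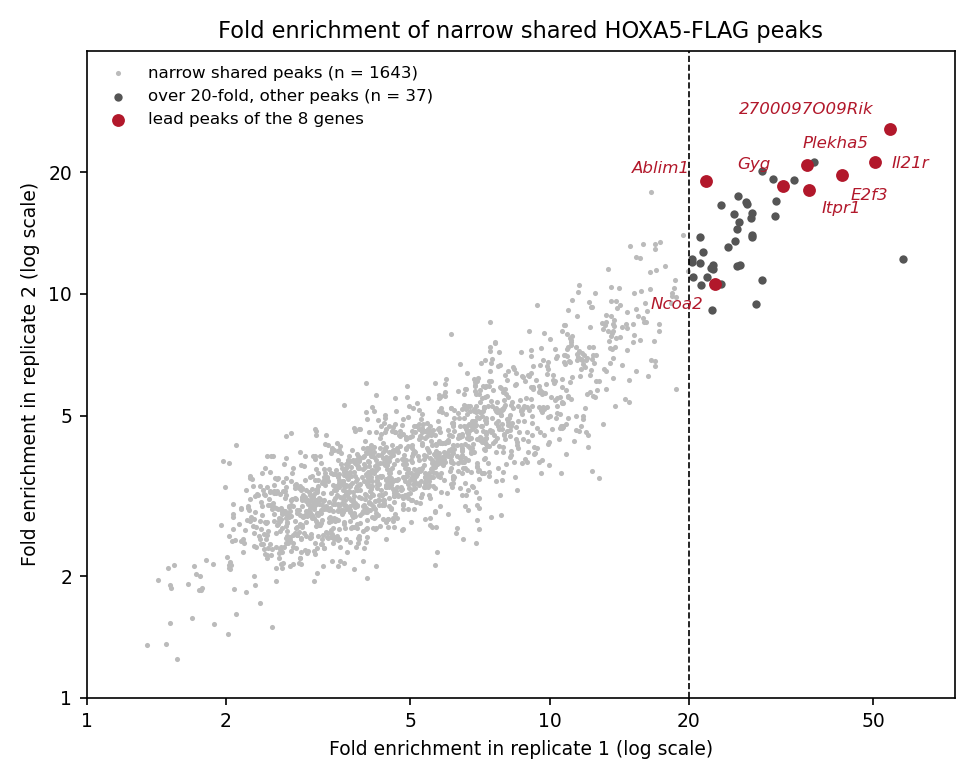
Fold enrichment in replicate 1 (x axis) against replicate 2 (y axis), both on log scales, for narrow shared peaks; each point is 1 peak, and the dashed line marks 20-fold in replicate 1. The lead peaks of the 8 genes (red) reach 10.6- to 25.6-fold in replicate 2, Ablim1 lies high in replicate 2 for its replicate 1 value, and the lone point at 58.1-fold in replicate 1 has no protein-coding gene within 100 kb.

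The 2 genes of the group that encode nuclear regulators differed in place and height. E2f3 encodes a transcription factor that drives genes for entry into DNA replication and is held in check by the retinoblastoma protein. Replicate 1 gave its lead peak an enrichment of 42.8-fold and replicate 2 one of 19.7-fold, with −log10 q of 630 and 235. It was the 1 lead peak outside its gene, at chr13:30048329-30048980 in replicate 1, 62.6 kb upstream of the distal of the 2 listed E2f3 start sites. The E2f3 gene itself spans chr13:29906575-29986064 on the minus strand. The nearest annotated gene of any kind was the long noncoding RNA gene Gm40860, 13.2 kb from the summit, and Mboat1, a lysophospholipid acyltransferase gene, lay 87.8 kb away on the other side. The assignment to E2f3 thus rests on distance between protein-coding genes alone.

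Ncoa2 encodes a p160 coactivator that nuclear hormone receptors recruit to their target genes. Its lead peak, at chr1:13366379-13366943, was enriched 22.8-fold in the replicate 1 list and 10.6-fold in the replicate 2 list, the lowest replicate 2 value of the 8, with −log10 q of 286 and 80.9. The summit lay inside the gene (chr1:13139105-13374227), 7.53 kb from its higher-coordinate end and 228 kb from the other. It was also the most isolated of the 8 lead peaks. The next peak was 404 kb away in replicate 1 and 421 kb away in replicate 2, and both were nearest to Xkr9. Of its flanking protein-coding genes, Prdm14 lay 240 kb and Tram1 198 kb from the summit, and neither had a shared peak.

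Il21r and Itpr1 encode signalling proteins of the cell surface and the endoplasmic reticulum. Il21r is the receptor for interleukin 21, which lymphocytes use with the common cytokine receptor gamma chain to activate JAK and STAT proteins. Its lead peak, at chr7:125632198-125632853, took place 3 in both lists, at 50.5-fold in the replicate 1 list and 21.2-fold in the replicate 2 list, with −log10 q of 790 and 269. The summit lay 94.0% of the way along the gene from its annotated 5′ end (chr7:125603252-125634397, plus strand), 29.1 kb downstream of the listed start site and 1.87 kb from the annotated 3′ end. Gtf3c1, a gene for a subunit of the RNA polymerase III factor TFIIIC, lay 8.43 kb beyond the summit and so was nearer to the peak than the Il21r start site was. Il4ra, the interleukin 4 receptor alpha chain gene, lay 53.1 kb away on the other side. No other peak lay within 169 kb in either list.

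Itpr1 encodes a channel that releases calcium from the endoplasmic reticulum when it binds inositol trisphosphate. Its lead peak, at chr6:108235703-108236368, was enriched 36.4-fold in the replicate 1 list and 18.1-fold in the replicate 2 list, with −log10 q of 515 and 220. The summit lay 22.9 kb from the lower-coordinate end of a gene of 338 kb (chr6:108213083-108551116), within the first 6.79% of its length counted from that end. The strand of Itpr1 and of Ncoa2 was not in the tables used here, so their ends were not named as 5′ or 3′. A replicate 2 peak of 2.67-fold lay 38.6 kb away inside the gene, and a replicate 1 peak of 3.01-fold lay 18.7 kb beyond the far end. Neither had a partner in the other list.

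Plekha5, Ablim1 and Gyg encode proteins of membranes, the cytoskeleton and metabolism. Plekha5 belongs to a family with a pleckstrin homology domain, a fold that binds membrane phosphoinositides. Its lead peak, at chr6:140476805-140477503, was enriched 35.9-fold in the replicate 1 list and 20.9-fold in the replicate 2 list, with −log10 q of 553 and 233. The summit lay 53.0 kb downstream of the listed start site, 30.8% of the way along the gene (chr6:140423639-140597110, plus strand). Another shared peak lay inside the next gene, Aebp2, which encodes a cofactor of the Polycomb repressive complex PRC2. That peak was 190 kb from the Plekha5 summit and reached 14.3-fold in replicate 1 and 6.68-fold in replicate 2. Narrow shared peaks of 10- to 15-fold in replicate 1 had median folds of 11.8 in replicate 1 and 6.82 in replicate 2.

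Ablim1 encodes an actin-binding LIM protein and has 5 listed start sites, all on the minus strand. Its lead peak, at chr19:57241816-57242394, was enriched 21.8-fold in the replicate 1 list and 19.0-fold in the replicate 2 list, with −log10 q of 394 and 215. The summit was 25.9% of the way along the gene from its 5′ end (chr19:57032733-57315344). It lay 72.8 and 32.6 kb downstream of the 2 distal start sites and 26.1 kb upstream of the third. The replicate 1 fold was the lowest of the 8, while the replicate 2 fold took place 9 in its list. The 10 narrow shared peaks closest to Ablim1 in replicate 1 fold (21.1 to 22.8) had −log10 q from 221 to 286 in that list, below the 394 of Ablim1. Their replicate 2 folds were 9.10 to 13.8, below its 19.0.

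Gyg encodes glycogenin, the protein that primes glycogen synthesis by adding the first glucose units to itself. Its lead peak, at chr3:20131273-20131965, was enriched 31.9-fold in the replicate 1 list and 18.5-fold in the replicate 2 list, with −log10 q of 419 and 261. The summit lay 71.2% of the way along the gene (chr3:20122083-20155117, minus strand), 23.5 kb downstream of the listed start site. The 3′ flank held Hltf, a DNA translocase gene, 13.1 kb from the summit. A second shared peak, of 3.84- and 3.76-fold, lay 58.0 kb away between Gyg and Cpa3, a mast cell carboxypeptidase gene, and nearer to Cpa3.

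2700097O09Rik is a protein-coding gene known by the name of its RIKEN clone, and no role is given for it here. It held the highest replicate 2 peak of the whole list, at 25.6-fold, and the replicate 1 peak was second in its own list at 54.4-fold, with −log10 q of 897 in replicate 1 and 309 in replicate 2. The replicate 1 peak covered chr12:55060815-55061534, and the 2 summits fell on the same base. That base was 19.0 kb downstream of the listed start site, 55.3% of the way along the gene (chr12:55045661-55080234, minus strand). Flanking genes were Srp54a, for a signal recognition particle protein, at 19.3 kb, and Baz1a, for a chromatin remodelling protein, at 46.8 kb. It was also the 1 locus with a row of weaker peaks beside the lead. In replicate 1 there were peaks of 5.85-, 4.15- and 3.42-fold at 0.955, 1.57 and 6.45 kb on the 3′ side, all inside the gene, and replicate 2 had none of the 3. Its nearest other peak in replicate 2 was 379 kb away.

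**Figure D2:**
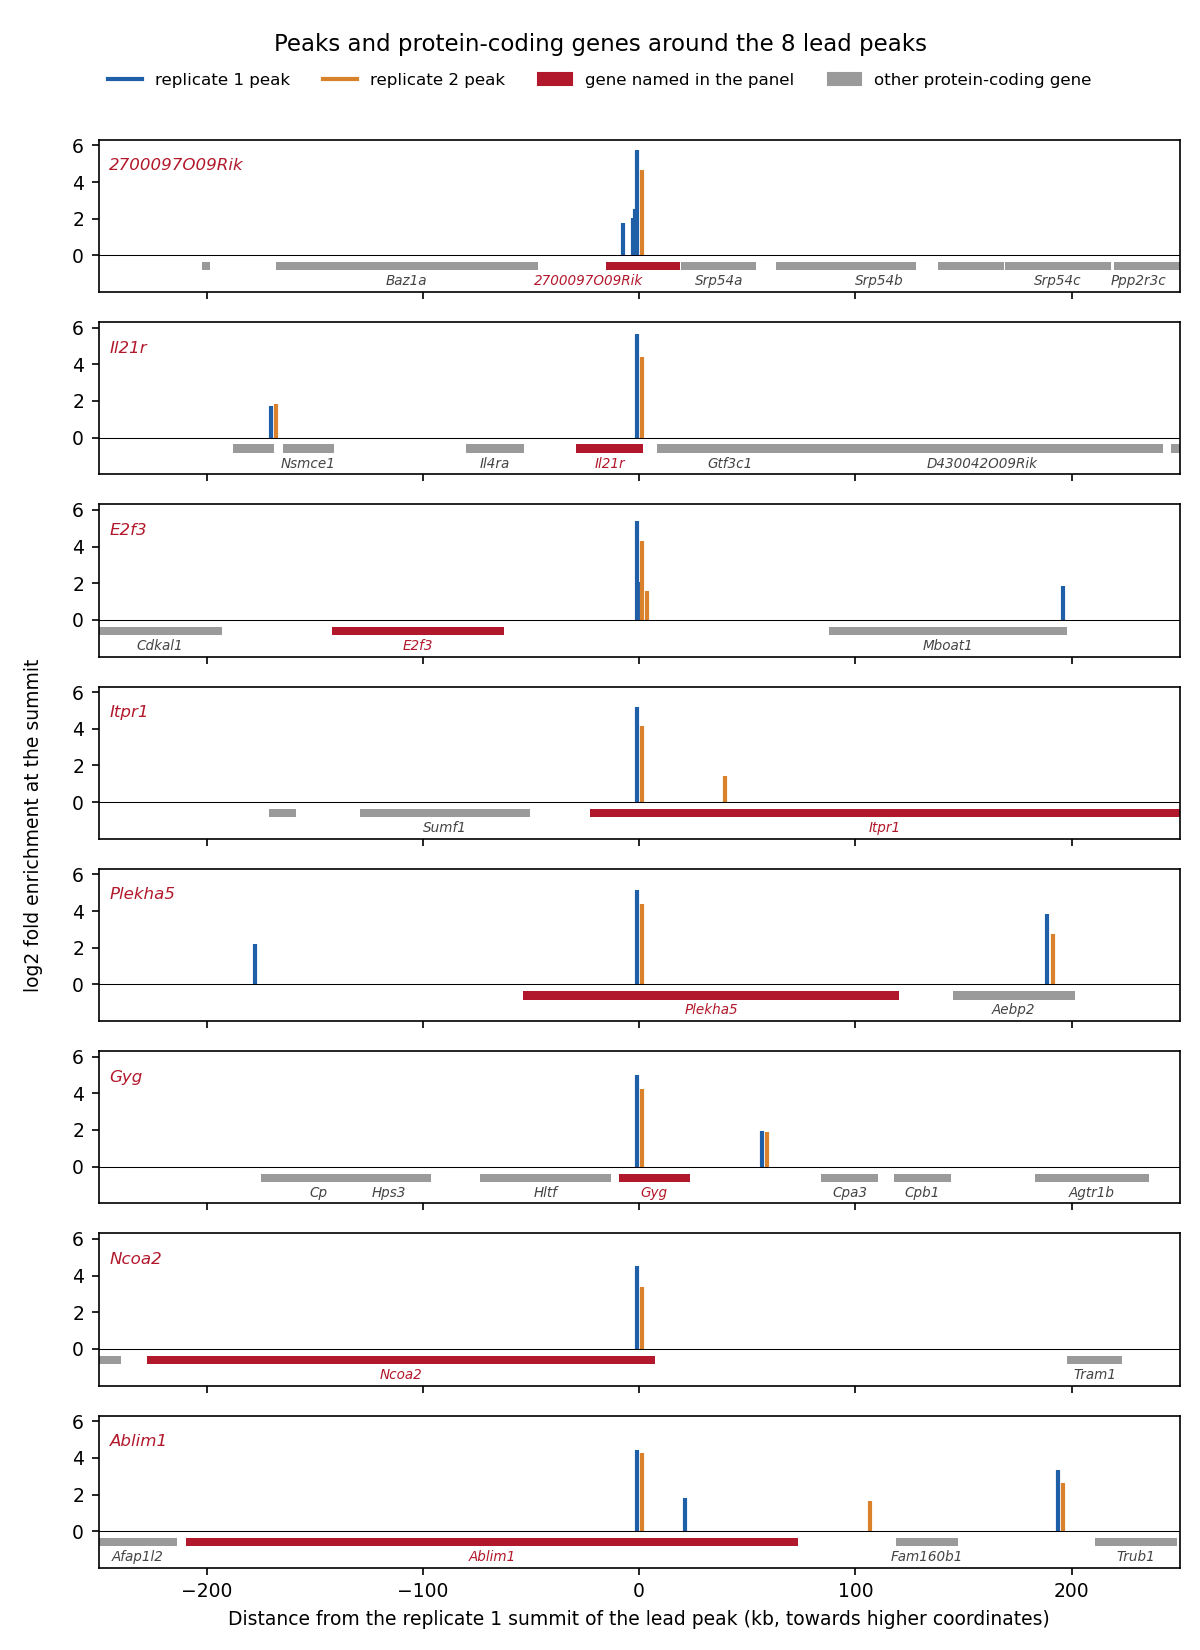
Peaks (vertical lines, height is log2 fold enrichment at the summit; replicate 1 blue, replicate 2 orange, drawn slightly apart) and protein-coding genes (bars below) within 250 kb of each lead summit, set at 0 on the x axis. The lead peaks lie inside 7 of the 8 genes and 62.6 kb from E2f3, and the row of weaker replicate 1 peaks is seen at 2700097O09Rik.

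Position within the genes followed no single pattern. The summit lay inside the gene at 7 of the 8 and at 690 of the 1643 narrow shared peaks (42.0%), but since location helped to choose the genes, nothing is read from that difference. Among all 45 peaks over 20-fold, 17 (37.8%) were inside a protein-coding gene, 16 within 100 kb of one, and 12 farther away. For the 4 genes with a listed strand and 1 start site that held their peak, the summit fell 30.8, 55.3, 71.2 and 94.0% of the way along. No lead summit lay within 1 kb of a listed start site of any gene, and no lead peak overlapped a listed promoter window. Itpr1 and Ncoa2 have no listed start site, so this does not cover their own promoters. The tables give no exons, so introns, exons and untranslated regions were not told apart.

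The 2 lists placed the summits of the lead peaks almost on the same base. They coincided at 2700097O09Rik and Ablim1, were 1 bp apart at Il21r, Itpr1 and Ncoa2, 2 bp at E2f3 and Plekha5, and 3 bp at Gyg. The median was 1 bp, against 22 bp over all narrow shared peaks and 32 bp over all 2175 shared peaks. All 8 lay within 3 bp, as did 23 of the 37 other peaks over 20-fold (62.2%) and 266 of all 1643 narrow ones (16.2%). The distance shrank with fold in general. The median was 52 bp up to 5-fold, 12 bp from 5 to 10, 6 bp from 10 to 15, 4 bp from 15 to 20 and 2 bp above 20. The close agreement of the 8 was thus shared with other peaks of that height.

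**Figure D3:**
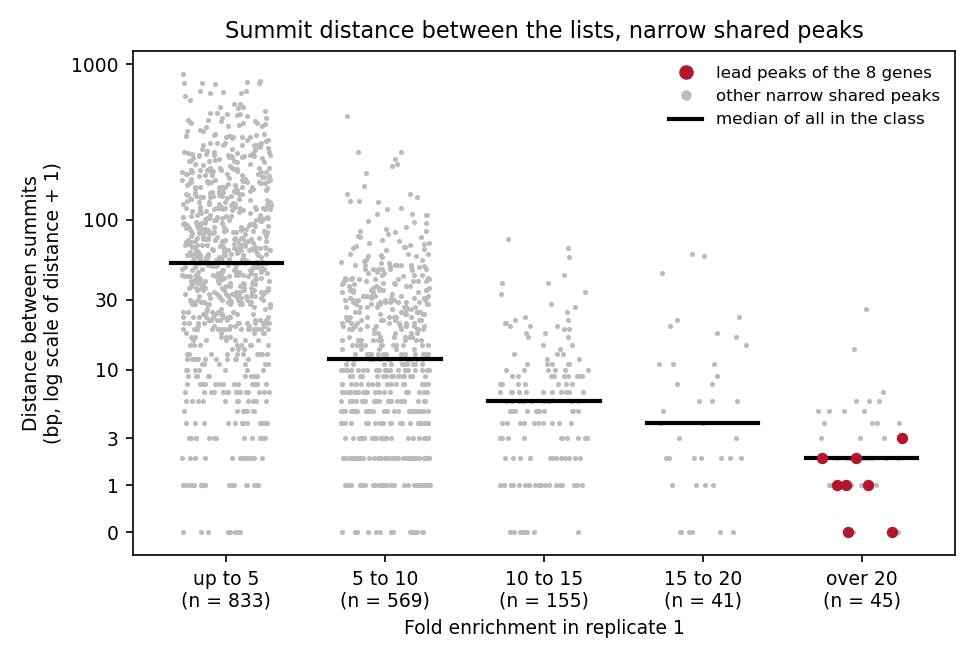
Distance between the replicate 1 and replicate 2 summits of narrow shared peaks (y axis, bp, log scale of the distance plus 1) by fold class in replicate 1 (x axis); points are peaks and black lines class medians. The lead peaks of the 8 genes (red) lie between 0 and 3 bp, and the class medians run from 52 bp at the lowest folds to 2 bp above 20-fold.

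The lead peaks were also alike in extent. They were 565 to 720 bp long in replicate 1 (median 661) and 441 to 675 bp in replicate 2 (median 598), against medians of 470 and 391 bp over all narrow shared peaks. The 37 other peaks over 20-fold had medians of 612 and 542 bp, with 434 to 810 bp in replicate 1, so lengths of this order were shared by peaks of that height. The overlap of the 2 peaks made up between 78.1 and 96.3% of their joint span (median 91.4%), against medians of 85.5% over the 37 other peaks over 20-fold and 76.1% over all narrow shared peaks. The summit lay near the middle of each peak, between 43.4 and 56.6% of its length in replicate 1 and between 46.9 and 55.7% in replicate 2. The shortest was at Ncoa2 in both lists.

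**Figure D4:**
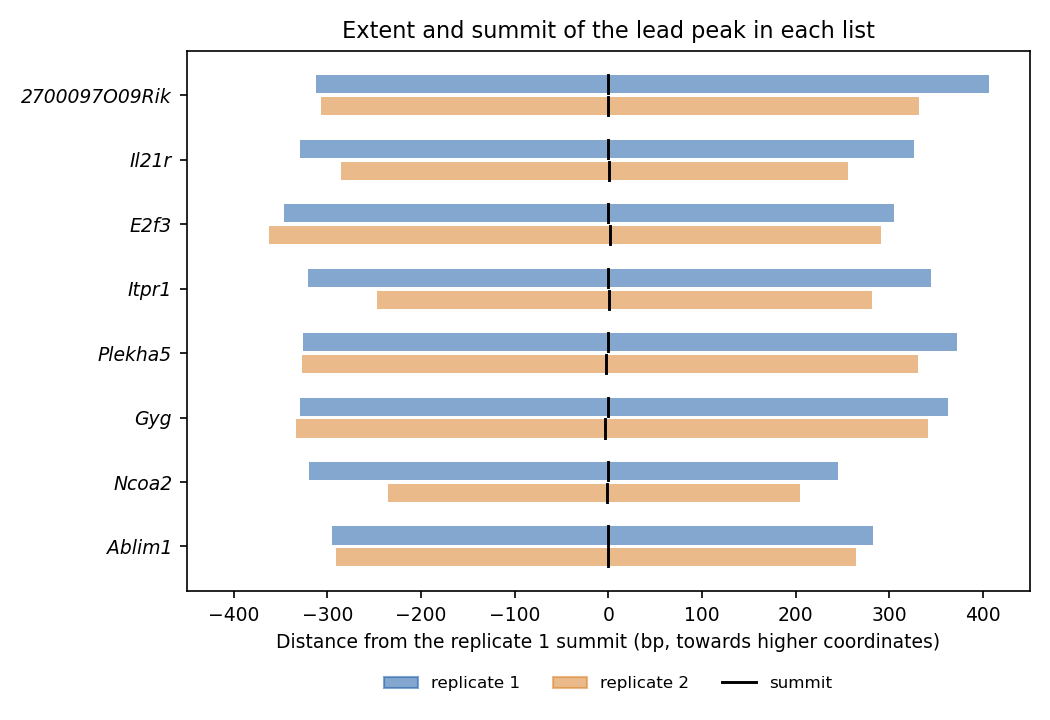
Extent of the lead peak at each of the 8 genes in replicate 1 (blue) and replicate 2 (orange), in bp from the replicate 1 summit; black ticks are summits. The ticks of the 2 lists lie at most 3 bp apart, and the peaks are 441 to 720 bp long.

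The order of the 8 genes by fold was similar but not identical in the 2 lists (Spearman rho 0.71 over 8 peaks, against 0.64 over the 45 narrow shared peaks over 20-fold and 0.83 over all 1643 narrow shared peaks, as descriptions). In replicate 1 the order from the top was 2700097O09Rik, Il21r, E2f3, Itpr1, Plekha5, Gyg, Ncoa2 and Ablim1. In replicate 2 2700097O09Rik and Il21r again came first, followed by Plekha5, E2f3, Ablim1, Gyg, Itpr1 and Ncoa2. With 1 value per list and no spread, it cannot be said which neighbours in these orders differ.

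Weaker peaks at these genes were then counted. The rule gave the 8 genes 14 peaks in replicate 1 and 10 in replicate 2, of which 8 in each list were the lead peaks. All 8 lead peaks had a partner by construction, where 51.2% of all replicate 1 peaks and 77.6% of all replicate 2 peaks did. Of the 45 replicate 1 peaks over 20-fold, all 45 had one, so the 8 do not stand out in this. The 8 weaker peaks, 6 in replicate 1 and 2 in replicate 2, had 2.67- to 5.85-fold enrichment and belonged to 2700097O09Rik, E2f3, Itpr1 and Ablim1. The pair at E2f3 was the 1 shared case, with 4.19-fold in replicate 1 and 2.94-fold in replicate 2, 2.26 kb from the lead summit and farther from the gene. Thus 1 of the 6 in replicate 1 and 1 of the 2 in replicate 2 had a partner. The share over all peaks of like fold was not computed, so nothing is read from these counts. At Ablim1 a replicate 1 peak of 3.46-fold lay 22.6 kb from the lead inside the gene, without a partner. Il21r, Plekha5, Gyg and Ncoa2 had the lead peak alone. E2f3 was accordingly the 1 gene of the 8 with more than 1 shared peak, and the other 7 had exactly 1. The choice gave each of the 8 at least 1, so the like background is the 1299 protein-coding genes with at least 1, of which 84.5% had exactly 1 and 201 had more (0.923% of all protein-coding genes). The 7 of 8 is near that share. Within 100 kb of the lead summit, another peak was present at 4 of the 8 in replicate 1 and 3 of the 8 in replicate 2. The shares over all narrow shared peaks were 44.1 and 31.1%.

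Of the 16 protein-coding genes that flank the 8 lead peaks, 3 had a shared peak of their own (18.8%), namely Aebp2 and Cpa3 with the peaks given above and Cdkal1, a tRNA-modifying enzyme gene beside E2f3, with 7.20-fold in replicate 1 and 5.24-fold in replicate 2. Over all protein-coding genes, 1299 had a shared peak (5.96%). The flanking genes were taken for lying beside a strong peak, and the difference between these shares was not tested.

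Families and pathways of the 8 genes were then counted. Of 75 related genes outside the 8, 7 had a shared peak (9.33%, against 5.96% of all protein-coding genes), and none reached 20-fold. No shared peak was found among 12 E2F, DP and retinoblastoma family genes or 7 p160 coactivator and partner genes. The same held for 13 genes of interleukin 21 signalling and related cytokine receptors. Among 7 actin-binding relatives of Ablim1, Ablim3 had 2, the higher with 10.6- and 5.04-fold inside the gene, and Lima1 had 1 with 8.55- and 4.85-fold. Of 16 calcium release genes, Itpr2, a paralogue of Itpr1, had a peak 11.3 kb from the gene with 6.92- and 4.74-fold, and Plcb1, a phospholipase gene that acts upstream of the channel, one of 3.81- and 2.98-fold inside it. Of 13 glycogen genes, Ppp1r3c, a glycogen-targeting subunit gene of protein phosphatase 1, had a peak at 45.8 kb (6.87 and 5.14), and Epm2a, the laforin gene, one at 55.8 kb (2.92 and 2.68). Of 7 Plekha genes, Plekha7 had one inside it (3.13 and 3.68). In each of these pairs the replicate 1 value stands first. Hoxa5 itself, on chromosome 6, had no shared peak.

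No file or reference table used here holds the DNA under the 8 lead peaks. Among the 45 peaks over 20-fold, however, 2 had their summit in a RefSeq promoter window (GRCm38.p6, the mm10 build). Neither belongs to the 8 genes. They are shown as examples of sequence at promoter summits of that height, and do not stand for the lead peaks. One lay at the noncoding RNA gene Gm31344 (chr1:73363709-73363769, plus strand, 26.6-fold, with 16.9-fold in replicate 2), and the other at a downstream start site of Uba1, a ubiquitin-activating enzyme gene (chrX:20662815-20662875, plus strand, 21.2-fold, with 10.5-fold in replicate 2). Each line gives 61 bases, with the replicate 1 summit at base 31, and capitals mark GATTCAT or its reverse complement.
Gm31344: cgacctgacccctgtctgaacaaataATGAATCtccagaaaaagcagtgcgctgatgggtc
Uba1: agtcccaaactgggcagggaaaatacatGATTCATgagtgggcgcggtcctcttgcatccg

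In both sequences the summit base fell within the marked letters, which occupied bases 27 to 33 at Gm31344 and 29 to 35 at Uba1. These letters were noticed in the sequences and not searched for beforehand, so their presence there is a description. Counting either strand, they were in the middle 61 bases of 0.442% of 32544 promoter windows, and at 3 of the 16 narrow shared summits of any fold that lie in such a window, these 2 included. At Uba1 they overlap a match to TGATTNAT, a letter pattern of HOX and PBX pairs also added afterwards, which 0.664% of windows held. Of the letters set down earlier, TAAT was found at Gm31344 alone (20.3% of windows). TAATTA, TGATTGAT, TGATTTAT, TGATTAAT and TGACAG were found in neither, and were in 1.32, 0.154, 0.187, 0.129 and 4.04% of windows. At the 16 narrow shared summits, TGATTGAT, a HOX and PBX pattern, was found at 2 (12.5%), TGACAG, a MEIS pattern, at 2 (12.5%), TAAT at 3 (18.8%) and TGATTNAT, which includes TGATTGAT, at 4 (25.0%). TAATTA, TGATTTAT and TGATTAAT were found at 0 of the 16.

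The other 25 genes with a narrow shared peak over 20-fold give the setting of the 8. The highest among them were Disp1, a hedgehog release gene, at 37.3-fold (21.2-fold in replicate 2), followed by Gm5174 at 33.7-fold (19.1-fold in replicate 2). Inside genes lay the peaks of Trps1, Nubpl, Runx2, Slc39a11, Gask1b, Ric8b, Tiparp, Npas4, Uba1 and Mthfd1l. Outside lay those of Tcf21, Sfswap, Kif16b, Gm6713, Plppr2, Fads1, Gm30447, Maip1, Gm6721, Aqp1, Samd5, Thbs1 and Vcam1. No gene had more than 1 peak over 20-fold. Just above the threshold stood peaks of 20.3-fold on chromosomes 8 and 14, without a protein-coding gene within 100 kb, and those nearest Vcam1 (20.4) and Thbs1 (21.1). Just below it stood those at Scrt1 (19.9), Kank2 (19.4), Galnt17 (18.8) and Rtp4 (18.7), so the threshold cuts a continuous range.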

How the data were processed

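Per the labels, tissue was crosslinked with 1% formaldehyde (10 min) and sonicated to fragments of 200 to 500 bp, 20 µg of chromatin was incubated with anti-FLAG, and libraries were made from 2 ng of DNA. Per the submitters' processing notes, tools included Bowtie2 2.5.2, SAMtools 1.18, bedtools 2.31.0 and MACS3 3.0.1, with the mm10 build; no source used here gives their settings or the peak caller's control. The authors deposited 1 peak list per immunoprecipitate, each row with the summit's fold enrichment (a ratio) and its −log10 p and q. The deposited score was not used. Titles carry wt and peak names in the replicate 2 list another replicate number; the labels were followed.

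Summits (start plus offset) were matched to the RefSeq gene table of GRCm38.p6, leaving out genes with a start below 3 Mb except on chromosome Y. Start sites came from RefSeq promoter windows (250 bases before to 50 after a start), which list 6 of the 8 genes. Chains of overlapping peaks were merged at the highest replicate 1 summit. Sharing and gene assignment were tested on simulated data. No statistical test was run. Named genes are the 8, the neighbours of their lead peaks, those assigned to other peaks over 20-fold or next to that threshold, family genes with a shared peak, and Hoxa5. Members and lists were chosen with earlier results of these data known. Read depth is unknown, so no counting interval is given. Python 3.11.15 with pandas 2.3.3 was used.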

Additional observations from a re-analysis of the deposited data

How the results depend on the processing

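Sharing by 50% reciprocal overlap, by summits within 100 bp, or with a −log10 q of at least 5 left the 8 genes with their lead peaks, the 45 peaks over 20-fold and the median summit distance of 1.00 bp in place. None of these sharing settings could have removed any of the 45 peaks, so their staying says nothing about stability. Their summits were at most 26 bp apart, with −log10 q of at least 210 in replicate 1 and 80.9 in replicate 2. The overlap made up at least 78.1% of the joint span at the 8 genes and 69.7% at the other 37 peaks. With narrow defined as at most 500 bp, 0 of the 8 genes and 2 peaks over 20-fold remained, since the lead peaks are longer. Assigning genes within 10 kb left 4 family genes and 3.95% of protein-coding genes with a shared peak, and 0 of the 8 genes with more than 1, because E2f3 then drops out. With either list alone, the 8 genes had 10 to 14 peaks, 2 to 4 of them had more than 1, 9 to 11 family genes had a peak, and 7.57 to 10.4% of protein-coding genes did. The number of peaks assigned to the 8 genes does not depend on how sharing is defined, so it was not recomputed for the sharing rules. No paired analysis was possible because only the immunoprecipitates have peak lists here and no test was made. Without read counts, inputs or an untagged control, precision and background at these sites were not assessed.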
